A study of Homo sapiens with 9 samples.

Results

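The genes described here are 33 that carry out or control the breakdown of glucose: the enzymes of glycolysis, those that exchange pyruvate with lactate or pass it to mitochondria, and those of the pentose phosphate pathway. They were taken by name, and a sequenced read pair was counted for a gene when its 5′ end and its 3′ end both lay on the gene's strand within 1000 bp of the gene body in Gencode release 44 (GRCh38, hg38). Of 62663 annotated genes, 12135 held enough read pairs to be tested, and 30 of the 33 were among them. The 3 others were SLC16A3, a lactate exporter, with 0, 0, 0 and 2 read pairs, PDK3, a kinase of pyruvate dehydrogenase, with 0, 2, 0 and 3, and PGM1, a phosphoglucomutase, with 0 in all 4 libraries, where a count of 0 allows up to 3 read pairs in each.

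TIF-seq2 copies capped, polyadenylated RNA into full-length cDNA, joins the ends of each cDNA into a circle and sequences both as a pair, so that a transcription start is linked to the poly(A) site of the same molecule. It was applied to K562, an established line of BCR-ABL-positive human erythroleukemia cells, grown for 24 h with 1 µM imatinib, an inhibitor of the ABL kinase, or with the solvent DMSO. Each condition had 2 biological replicates, named here DMSO 1, DMSO 2, imatinib 1 and imatinib 2, and values of the 4 libraries are given in that order throughout. All came from 1 cell line, so the p-values measure the spread between these cultures, and in a bulk culture fewer cells of a kind and less RNA per cell cannot be told apart.

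Glycolysis splits glucose into pyruvate in a fixed chain of steps, most of which can be run by more than one isoenzyme, each from its own gene. Proliferating cells tend to use hexokinase 2, the M form of pyruvate kinase and lactate dehydrogenase A, and send much of the pyruvate out as lactate. Maturing red cells have their own set, including a red-cell promoter of hexokinase 1, the R form of pyruvate kinase from PKLR, and bisphosphoglycerate mutase, which makes the 2,3-bisphosphoglycerate that lowers the oxygen affinity of haemoglobin.

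The libraries held 3695520, 5135829, 4263670 and 2263121 read pairs. Imatinib 2 was thus the shallowest, and replicates of a condition differed by more than counting error, with a chi-square per degree of freedom of 9.38 for DMSO and 15.3 for imatinib. Of 16 markers fixed for K562, 15 were tested, 9 rose after imatinib and 1, GATA2, fell, beside 8.69% and 6.15% of all genes tested. GATA1, TAL1, TFRC, NFE2 and ABL1 did not pass edgeR's test. The summed level of the 16 was 7323, 6243, 19440 and 19370 counts per 1000000 read pairs (CPM). Most of it came from the globin genes HBG2, HBE1 and HBZ, at 3714, 1329 and 1141 CPM in DMSO 1. Globin and several other erythroid transcripts thus moved with the treatment, and the part of this in the results below was not tested. Of 10 markers of other cells, 4 were tested and none passed edgeR's test, though COL1A2 and PECAM1, at low counts, had an unadjusted p under 0.05. CD3E, MS4A1 and KRT5 were at 0, and the summed level of the 10 was 141, 150, 118 and 98.4 CPM.

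After imatinib 6 of the 30 tested genes fell and 1 rose (edgeR's quasi-likelihood test, Benjamini-Hochberg adjusted p under 0.05 over all genes tested). Over all genes 6.15% fell and 8.69% rose. The 6 that fell were HK2, PGK1, PGAM1, ENO1, PKM and LDHA, and the 1 that rose was BPGM. The other 23 did not pass the test. The log2 fold change was below 0 in 20 members and above 0 in 10, with a median of -0.26, beside a median of 0.03 over all genes tested. In 17 members the DMSO and imatinib libraries did not overlap, against 60.0% of all genes. Together the members held 0.793%, 0.879%, 0.711% and 0.687% of the read pairs of the 4 libraries, and their summed level was 7705 and 7902 CPM with DMSO and 6107 and 6298 with imatinib. Here and below, CPM are read pairs divided by the library size scaled by TMM, and a fold change is imatinib over DMSO in the edgeR fit.

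**Figure D1:**
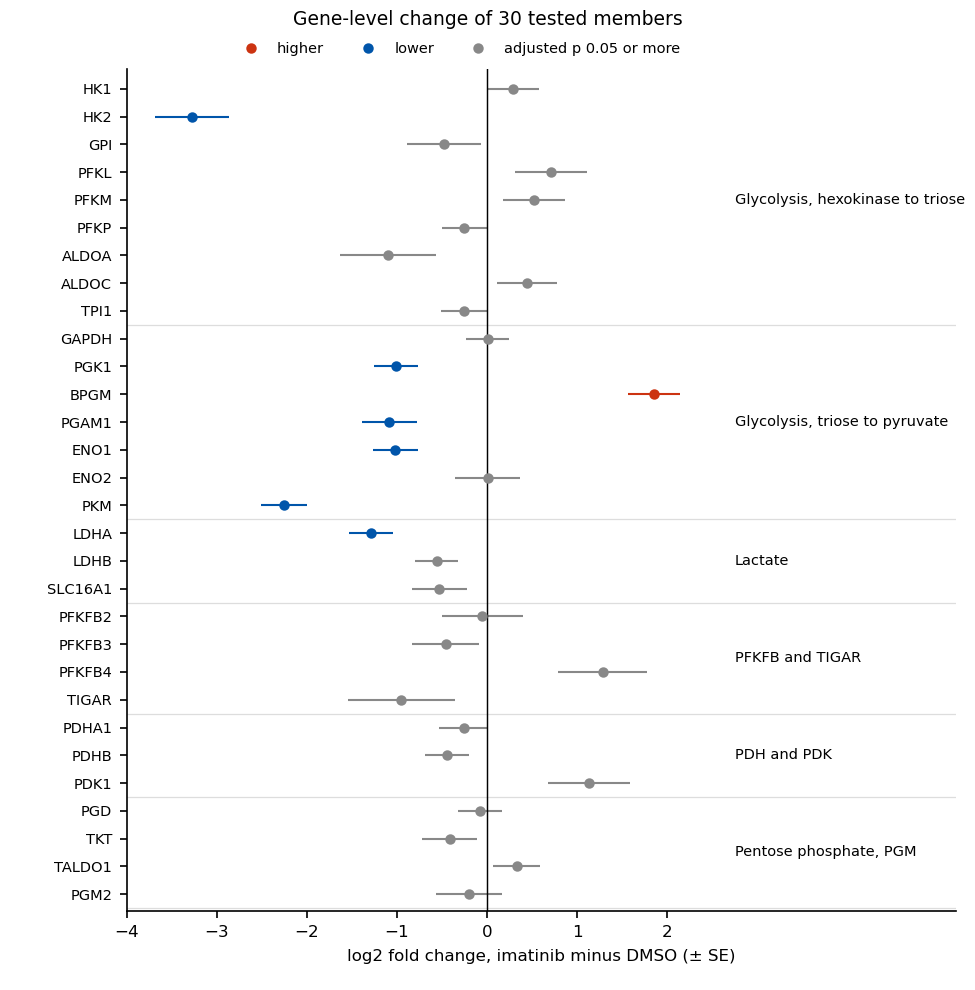
Log2 fold change of imatinib over DMSO (x axis) for the 30 tested genes, grouped by role (y axis), with bars of ±1 standard error from the edgeR fit; red marks genes that rose, blue genes that fell, and grey genes that did not pass the test. HK2 lies lowest at -3.27 and BPGM highest at 1.85, while GAPDH lies at 0.01.

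The first step of glycolysis is the phosphorylation of glucose by hexokinase. HK2 (ENSG00000159399.10, chr2:74834127-74893359, plus strand) held 87, 133, 9 and 8 read pairs, or 22.9, 23.3, 1.81 and 3.24 CPM. Both imatinib libraries lay far below both DMSO libraries, and the level fell by 3.27 ± 0.41 (SE) on the log2 scale, a 9.67-fold lower value (edgeR, adjusted p = 0.00294). Of its 237 read pairs, 69.6% ended before a genomic stretch with at least 7 A in 10 bases, where the oligo(dT) primer can bind inside a transcript. Without such read pairs the log2 fold change was -2.35 and still passed the test. Molecules that began at the annotated HK2 start numbered 32, 55, 1 and 3, and the remaining starts lay mostly in the last exon, in its 3′ UTR. HK1, the hexokinase that most tissues express, held 1236, 1221, 1429 and 915 read pairs and did not pass the test (log2 fold change 0.29 ± 0.29). HK2 accordingly made up 6.58% and 9.82% of the hexokinase read pairs with DMSO, and 0.626% and 0.867% with imatinib, with 95% Wilson intervals of 5.36 to 8.04%, 8.35 to 11.5%, 0.330 to 1.19% and 0.440 to 1.70%. Each read pair stands for 1 molecule, so such shares are compared between libraries only, and the intervals cover counting error only.

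The HK1 molecules themselves came from several starts. In the molecules linked to a clustered start and poly(A) site, called TIFs here (transcript isoforms), the most used start was chr10:69315824, 39 bp from the start of HK1-201, whose coding sequence of 916 codons begins in the red-cell first exon. With its neighbours, a group of 5 starts, it held 549, 578, 728 and 506 read pairs, or 91.0%, 91.2%, 98.2% and 96.2% of those in TIFs. Of all HK1 read pairs this group held 53.3%, 55.4%, 61.3% and 64.7%. A start 3056 bp downstream, in the first exon of HK1-202, the MANE transcript of 917 codons, held 15, 17, 2 and 3 read pairs, or 2.49%, 2.68%, 0.270% and 0.570%. Its share was lower in both imatinib libraries and fell by 2.66 on the log2 scale (edgeR's diffSpliceDGE, adjusted p = 0.0442), a call that was lost when any of the 4 libraries was left out. Counting all HK1 read pairs that start there in place of those in TIFs gave 7.77%, 7.54%, 1.40% and 2.08%. Another start, 18790 bp downstream of the first in intron 1 of HK1-202, held 6.47%, 6.15%, 1.48% and 3.23% and did not pass the test (adjusted p = 0.153). The sequences of the first and second start are shown because they mark the red-cell and the general promoter. Each holds 20 bases before the start and 10 from it on (hg38, plus strand, 5′ to 3′), with none of the motifs named below in it.
HK1 chr10:69315804-69315833: gggggtgggatggacagagcactggctggg
HK1 chr10:69318860-69318889: cgagcagccgccggaggaccacggctcgcc

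Phosphoglucose isomerase (GPI) and the 3 phosphofructokinase genes did not pass the test at the gene level. GPI held 303, 730, 512 and 111 read pairs, and the liver-type PFKL 116, 338, 468 and 129. In both genes DMSO 2 and imatinib 1 were high within their groups, and the groups overlapped. The platelet-type PFKP held most of the phosphofructokinase read pairs, at 82.2%, 72.2%, 58.8% and 69.7%. The muscle-type PFKM was the rarest of the 3, with 47, 57, 68 and 46 read pairs and a log2 fold change of 0.52 ± 0.34 (edgeR, adjusted p = 0.328).

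PFKM changed in where its molecules began. Its only TIF, from chr12:48105345 to the poly(A) site at chr12:48146104, held 1, 3, 22 and 19 read pairs. It rose by 3.87 on the log2 scale (edgeR, adjusted p = 0.00852), and by 3.51 to 4.48 with any 1 library left out. A start position entered TIFs only with a scaled count of 1 in at least 2 libraries, which took 9, 11, 8 and 5 read pairs. This start held 7, 10, 45 and 35 over all read pairs, so only the imatinib libraries let it in. The call is therefore not independent support for a rise. Most PFKM molecules lie outside TIFs, so starts were also counted in 200 bp windows over all read pairs, an alternative chosen after these values were seen. The upstream window held 8, 10, 45 and 35 read pairs, and the downstream window, at the start of the MANE transcript PFKM-203 (780 codons), held 34, 46, 16 and 9. The upstream start thus made up 19.0% (95% Wilson interval 9.98 to 33.3%) and 17.9% (10.0 to 29.8%) of the counted starts with DMSO, and 73.8% (61.6 to 83.2%) and 79.5% (65.5 to 88.9%) with imatinib. Both windows passed edgeR's diffSpliceDGE test, with adjusted p = 0.0286 for the upstream start and 0.0430 for the downstream one, against 2.56% of all windows tested. The 2 windows make up all the counted starts, so a rise of 1 share is a fall of the other. These calls are 1 result, not 2. The 2 starts lie 14019 bp apart. The upstream one lies 8 bp from the nearest annotated start in RefSeq, 137 bp from the start of PFKM-214 in Gencode, and outside the MANE transcript. The downstream one is the first base of PFKM-203.

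The rise of the upstream share, 58.2 percentage points on average, was seen in both imatinib libraries, but the call was lost when any 1 library was left out. The adjusted p for the upstream start was 0.548 without DMSO 1, 0.716 without DMSO 2, 0.120 without imatinib 1 and 0.0660 without imatinib 2. When 1 library is left out, the lone library of its condition is assumed to vary like those of the other. The sequences below show the 2 starts (hg38, plus strand, 5′ to 3′), the upstream one with 100 bases before the start and 10 from it on, the downstream one with 20 and 10. Both strands were searched for the E-box CACGTG, for ACGTG (which every CACGTG contains), for the GC box GGGCGG, for the TATA box TATAAA and for the CCAAT box, and neither window holds any of them. G or C made up 40.9% of the upstream one.
PFKM upstream start, chr12:48105245-48105354: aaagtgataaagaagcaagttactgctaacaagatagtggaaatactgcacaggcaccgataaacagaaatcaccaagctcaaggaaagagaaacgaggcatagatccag
PFKM downstream start, chr12:48119344-48119373: ctcccccctttcccaaggacaatctgcaag

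Aldolase splits the 6-carbon sugar. ALDOA held 1150, 3918, 1731 and 274 read pairs, or 303, 686, 349 and 111 CPM, and ALDOC 352, 506, 428 and 398 read pairs. The groups overlapped in both, with DMSO 2 high for ALDOA and imatinib 2 low, and ALDOA did not pass the test (log2 fold change -1.10 ± 0.53, edgeR, adjusted p = 0.191). Without imatinib 1, without DMSO 1, or without the filter on low counts, ALDOA passed it. All ALDOA read pairs also count for the overlapping ENSG00000285043, and all ALDOC read pairs for the overlapping RSKR. In ALDOA a group of 7 neighbouring starts, about 1547 bp upstream of the most used start, held 317, 1028, 234 and 40 read pairs in TIFs, or 40.3%, 42.1%, 19.4% and 18.8% of the gene's. These shares were lower in both imatinib libraries but the test did not call them (adjusted p = 0.668). Within that group the TIF from chr16:30064433 held 82, 278, 51 and 11 read pairs and fell by 2.02 on the log2 scale (edgeR, adjusted p = 0.0424). The TIF from chr16:30064236 held 33, 111, 12 and 3 and fell by 2.68 (edgeR, adjusted p = 0.0217). Without DMSO 2 neither isoform passed the test (adjusted p = 0.296 and 0.137). The nearest annotated transcript of the upstream group, ALDOA-216, encodes 364 codons and the MANE transcript ALDOA-218 encodes 418.

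Triosephosphate isomerase (TPI1) and glyceraldehyde-3-phosphate dehydrogenase (GAPDH) stand in the middle of the chain. TPI1 held 931, 1466, 1165 and 457 read pairs with a log2 fold change of -0.26 ± 0.25. GAPDH, at 1544, 1387, 1425 and 1526 CPM, was the most counted member and had a log2 fold change of 0.01 ± 0.24. Neither passed the test.

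The next 3 enzymes of the chain each fell. PGK1, phosphoglycerate kinase, which yields the first ATP of the pathway (ENSG00000102144.15, chrX:77910739-78129295, plus strand), was at 410, 428, 217 and 198 CPM and was 2.02-fold lower after imatinib (edgeR, adjusted p = 0.0255). PGAM1, phosphoglycerate mutase (ENSG00000171314.9, chr10:97426191-97433444, plus strand), was at 127, 107, 44.1 and 66.8 and was 2.12-fold lower (edgeR, adjusted p = 0.0429). ENO1, enolase (ENSG00000074800.16, chr1:8861000-8879190, minus strand), was at 745, 907, 404 and 412 and was 2.02-fold lower (edgeR, adjusted p = 0.0270). In each of the 3 genes both imatinib libraries lay below both DMSO libraries. ENO2, the enolase of neurons, was at 8.15, 10.2, 8.26 and 10.5 CPM and did not pass the test.

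These 3 calls stood nearer the threshold than those of HK2, PKM and BPGM. Without DMSO 1 the adjusted p was 0.138 for PGK1, 0.218 for PGAM1 and 0.0874 for ENO1 in edgeR, and without DMSO 2 it was 0.196, 0.116 and 0.274. PGAM1 also missed the threshold without imatinib 1 (adjusted p = 0.0616) and, since 29.2% of its read pairs ended before an A-rich stretch, without those (adjusted p = 0.0601). The most counted isoform of each gene, from its main start to its main poly(A) site, did not pass the test on its own. For PGK1 it held 1047, 1631, 752 and 324 read pairs (log2 fold change -0.81 ± 0.26). For ENO1 it held 2243, 4159, 1598 and 845 (-0.83 ± 0.24). For PGAM1 it held 87, 101, 45 and 28 (-0.83 ± 0.38).

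Pyruvate kinase makes pyruvate and the second ATP. PKM (ENSG00000067225.21, chr15:72199029-72231819, minus strand) held 2103, 3087, 549 and 294 read pairs, or 553, 541, 111 and 119 CPM. The 2 libraries of each condition lay close together and the conditions far apart, a 4.77-fold lower level after imatinib (log2 fold change -2.25 ± 0.25, edgeR, adjusted p = 0.00217). PKLR, the gene of the liver and red-cell forms, belongs to the other genes of the pathway and went the opposite way, from 423 and 630 read pairs to 3253 and 1214, a 5.18-fold higher level (edgeR, adjusted p = 0.00217). PKM therefore made up 83.2% (95% Wilson interval 81.7 to 84.7%) and 83.0% of the pyruvate kinase read pairs with DMSO, and 14.4% (13.4 to 15.6%) and 19.5% (17.6 to 21.6%) with imatinib.

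**Figure D2:**
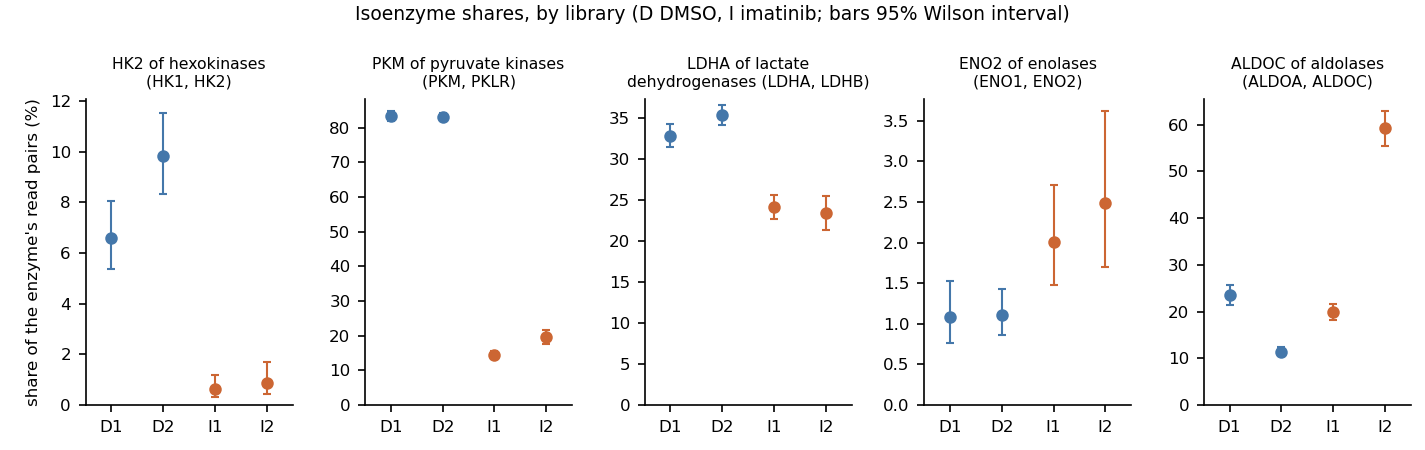
Share of one isoenzyme among the read pairs of its family, in percent (y axis), in each of the 4 libraries (x axis, D for DMSO and I for imatinib), with bars of the 95% Wilson interval. PKM goes from 83.2% and 83.0% to 14.4% and 19.5%, HK2 from 6.58% and 9.82% to 0.626% and 0.867%, and LDHA from 32.8% and 35.4% to 24.1% and 23.4%, while ALDOC overlaps between the conditions.

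Among the isoforms of PKM, the one from the MANE start at chr15:72231190 to chr15:72199032 held 1236, 1750, 308 and 195 read pairs and fell by 2.00 ± 0.26 on the log2 scale (edgeR, adjusted p = 0.00353). The one that starts 51 bp upstream held 134, 191, 31 and 15 and fell by 2.29. Another start, 32 bp downstream, held 85, 130, 55 and 16 and did not pass the test. A start inside the gene, in coding exon 6 of PKM-202, held 36, 86, 2 and 0 read pairs, or 2.40%, 3.97%, 0.504% and 0% of the gene's, where 0 of 226 allows up to 1.33%. Its share fell (edgeR's diffSpliceDGE, adjusted p = 0.0253), a call lost when any 1 of the 4 libraries was left out, and its 5′ ends lie 125 bp from the start of the retained-intron transcript PKM-207. Over all PKM read pairs this start held 78, 162, 9 and 6, or 3.71%, 5.25%, 1.64% and 2.04%, a smaller difference than in TIFs, and the 200 bp window there was not called (7.89%, 9.54%, 4.13% and 5.91%, adjusted p = 0.553). The promoter of the main start is shown because most PKM molecules begin there (hg38, minus strand, 100 bases before the start and 10 from it on). Capitals mark a CCAAT motif, read on the other strand, 79 bases before the start and GGGCGG at 69 and 64 bases before it, which overlap by 1 base.
PKM chr15:72231181-72231290: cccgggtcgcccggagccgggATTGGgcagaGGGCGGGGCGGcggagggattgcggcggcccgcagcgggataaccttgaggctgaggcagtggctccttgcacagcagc

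Lactate dehydrogenase turns pyruvate into lactate, and LDHA is the subunit that favours this direction. LDHA (ENSG00000134333.15, chr11:18394560-18408425, plus strand) held 1381, 2202, 753 and 381 read pairs, or 363, 386, 152 and 154 CPM. The imatinib libraries lay close together and well below both DMSO libraries, a 2.45-fold lower level (log2 fold change -1.29 ± 0.24, edgeR, adjusted p = 0.0109). Without DMSO 2 the log2 fold change was -1.26 and the adjusted p 0.0733. LDHB, the other main subunit, held 2826, 4027, 2368 and 1250 read pairs and did not pass the test (log2 fold change -0.56 ± 0.24, adjusted p = 0.146). Nearly all LDHB read pairs, 99.6%, also count for the overlapping ENSG00000285854. LDHA made up 32.8% and 35.4% of the read pairs of the 2 genes with DMSO and 24.1% and 23.4% with imatinib.

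**Figure D3:**
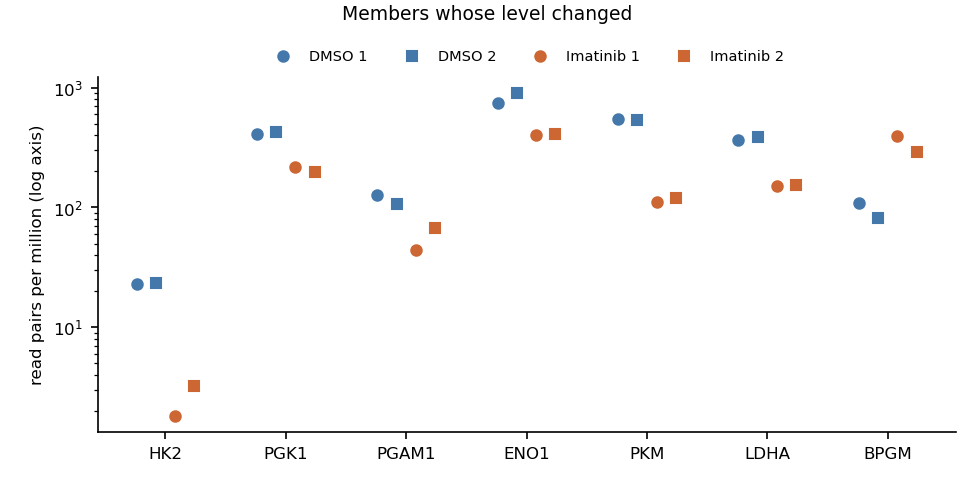
Level of the 7 genes that passed the test, in CPM on a log axis (y axis), in each DMSO and imatinib library (points), by gene (x axis). The imatinib points lie below the DMSO points for HK2, PGK1, PGAM1, ENO1, PKM and LDHA, and above them for BPGM, which goes from 109 and 81.1 to 394 and 291.

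The loss of LDHA molecules was uneven between its promoters. The main start, chr11:18394563, is the first base of the MANE transcript LDHA-205, which encodes 332 codons. The second start, chr11:18396351, lies 1788 bp downstream in intron 1 of LDHA-205 and 73 bp from the start of LDHA-203, which encodes 361 codons. It coincides with an annotated start in RefSeq. In TIFs the second start, a group of 2 neighbouring start clusters, held 5, 16, 74 and 32 of the gene's 1056, 1603, 518 and 301 read pairs. Its share was 0.474% (95% Wilson interval 0.202 to 1.10%) and 0.998% (0.615 to 1.61%) with DMSO, and 14.3% (11.5 to 17.6%) and 10.6% (7.63 to 14.6%) with imatinib. The intervals of the 2 conditions did not meet, and the mean share rose by 11.7 percentage points, from 0.736% to 12.5% (log2 change in usage 4.00, edgeR's diffSpliceDGE, adjusted p = 0.00114). The comparison of these promoters was chosen with earlier results of these data known, so its p-values are not independent support. Without DMSO 1 the adjusted p was 0.0571 and without DMSO 2 it was 0.0820, and with either imatinib library left out the call remained.

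**Figure D4:**
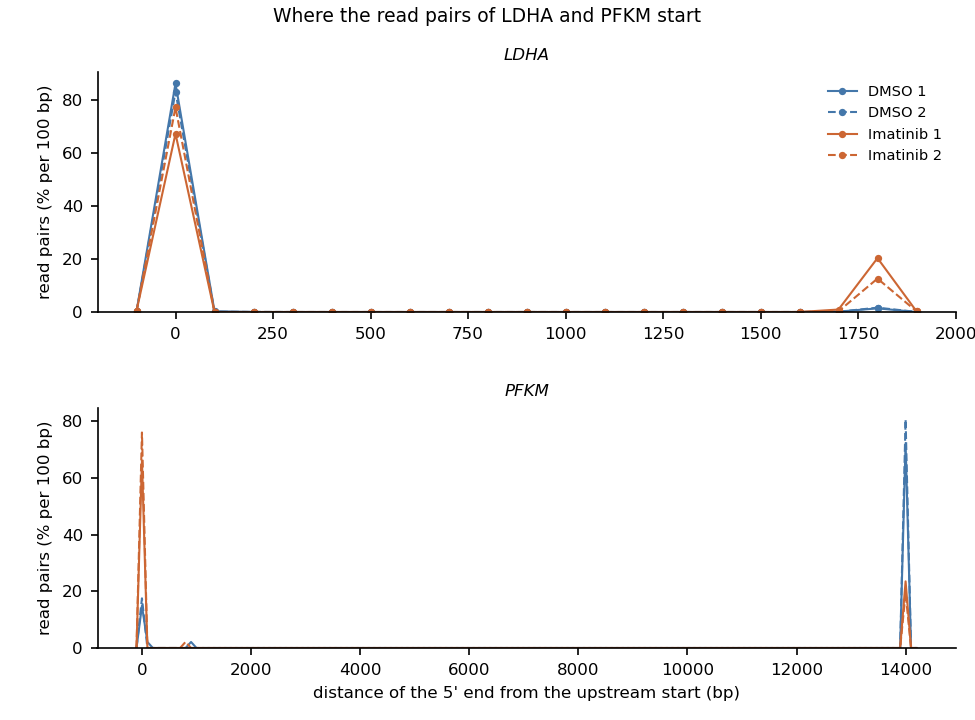
Percent of a gene's read pairs that start in each 100 bp bin (y axis) against the distance in bp from the upstream start (x axis), for LDHA and PFKM in each of the 4 libraries. In LDHA a second peak appears 1788 bp downstream in the imatinib libraries, and in PFKM the peak 14019 bp downstream shrinks while the upstream one grows.

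Counting all read pairs, those in TIFs included, gave the same split. Within a 200 bp window over all LDHA read pairs the second start held 21, 39, 162 and 50, or 1.52%, 1.77%, 21.5% and 13.1% of them (edgeR's diffSpliceDGE, adjusted p = 0.00104). This call was lost without DMSO 1 (0.227) or DMSO 2 (0.222). By isoform, the TIF from the second start to the main poly(A) site at chr11:18407846 held 3, 11, 53 and 25 read pairs and rose by 3.00 ± 0.54 on the log2 scale (edgeR, adjusted p = 0.0103). The TIF from the main start to the same site held 829, 1148, 336 and 231 and fell by 1.22 ± 0.27 (edgeR, adjusted p = 0.0210). A start 33 bp further on held 145, 252, 76 and 29 and fell by 1.41. Without DMSO 1 or DMSO 2 the fall of the main isoform missed the threshold (adjusted p = 0.121 and 0.116), as did that of its neighbour (0.105 and 0.247), while the rise of the isoform from the second start passed it with any 1 library left out. These isoforms end at the same poly(A) site, and molecules from the first still outnumbered those from the second in all 4 libraries.

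The 2 LDHA promoters are shown because the shares of their starts differed between the conditions (hg38, plus strand, 5′ to 3′, 100 bases before each start and 10 from it on). In the first, capitals mark CACGTG, 87 bases before the start, and ACGTG on the other strand, 73 bases before it. CACGTG is the E-box recognised by MYC and related factors, and ACGTG is the core of the hypoxia response element. In the second, capitals mark GGGCGG, a GC box, at 83 bases and, on the other strand, 31 bases before the start. Over the 15953 clustered starts of the series, 5.03% held CACGTG, 13.0% ACGTG, 46.3% GGGCGG and 21.2% CCAAT in the same window, so GC boxes are common there. A match is a run of letters only, and no binding was measured.
LDHA first start, chr11:18394463-18394572: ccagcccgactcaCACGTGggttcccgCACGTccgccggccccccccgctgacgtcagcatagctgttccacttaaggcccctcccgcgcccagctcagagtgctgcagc
LDHA second start, chr11:18396251-18396360: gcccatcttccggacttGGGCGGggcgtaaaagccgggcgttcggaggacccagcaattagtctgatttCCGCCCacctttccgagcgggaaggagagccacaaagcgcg

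LDHA also used a second poly(A) site, 449 bp before the main one in the same 3′ UTR. Counted with its neighbours, a group of 4 clusters, it ended 5.02%, 7.86%, 3.86% and 2.33% of the gene's molecules in TIFs. The shares were lower with imatinib in both libraries, but the test did not call the difference (edgeR's diffSpliceDGE, adjusted p = 0.925). The isoform from the main start to this site held 35, 95, 12 and 4 read pairs and fell by 2.44 ± 0.54 (edgeR, adjusted p = 0.0204, or 0.140 without DMSO 2). The 30 bases that end at each site are given with a poly(A) signal in capitals. The main site holds the canonical AATAAA, beginning 18 bases before the end, and the proximal one holds the common variant ATTAAA, beginning 26 bases before it. Of all clustered poly(A) sites of the series 49.1% hold AATAAA and 17.5% hold ATTAAA in these bases.
LDHA main poly(A) site, chr11:18407817-18407846: actaaaacccccAATAAAccttgaacagtg
LDHA proximal poly(A) site, chr11:18407368-18407397: tgtgATTAAAgcagtaatattttaagatgg

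BPGM, which draws 1,3-bisphosphoglycerate out of glycolysis to make 2,3-bisphosphoglycerate, was the member that rose (ENSG00000172331.12, chr7:134646811-134679816, plus strand). It held 415, 463, 1955 and 719 read pairs, or 109, 81.1, 394 and 291 CPM. The lower imatinib library was above the higher DMSO library by more than the spread within either group, a 3.61-fold higher level (log2 fold change 1.85 ± 0.29, edgeR, adjusted p = 0.00540). Its 2 main isoforms start 29 bp apart and share the poly(A) site at chr7:134679807. The one from chr7:134646825 held 217, 255, 607 and 232 read pairs and rose by 1.27 ± 0.31 (edgeR, adjusted p = 0.0295, or 0.133 without DMSO 1 and 0.279 without DMSO 2). The one from chr7:134646854, 1 bp from the MANE start of BPGM-201, held 90, 104, 802 and 324 and rose by 2.99 ± 0.32 (edgeR, adjusted p = 0.00229). The downstream of these neighbours made up 28.6% and 29.2% of the molecules with DMSO and 56.1% and 57.3% with imatinib. Counted as separate starts, an alternative chosen after these values were seen, this change of 27.8 percentage points was not called (edgeR's diffSpliceDGE, adjusted p = 0.149). Of 81 such separate starts tested in the members 3 were called, again in LDHA, PKM and HK1, beside 2.82% over all genes.

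**Figure D5:**
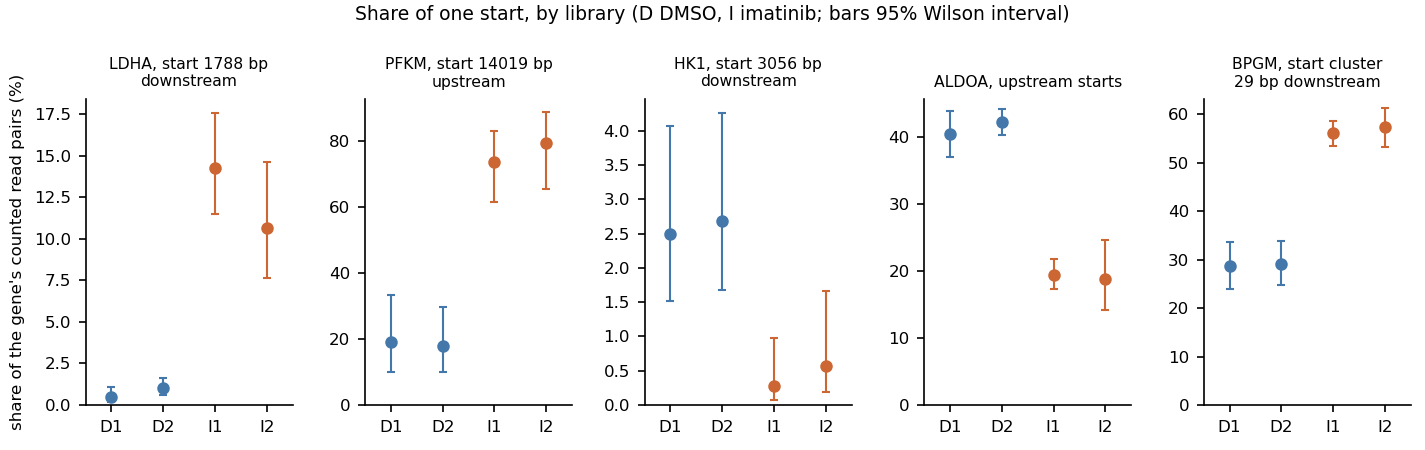
Share of one start, or group of starts, among the read pairs counted by start for LDHA, PFKM, HK1, ALDOA and BPGM, in percent (y axis), in each library (x axis, D for DMSO and I for imatinib), with bars of the 95% Wilson interval. The LDHA start 1788 bp downstream goes from 0.474% and 0.998% to 14.3% and 10.6% and the PFKM upstream start from 19.0% and 17.9% to 73.8% and 79.5%; the ALDOA and BPGM shares also separate the conditions but were not called.

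A further BPGM start, 326 bp downstream in intron 1, was seen in 0, 0, 21 and 5 molecules in TIFs, where a count of 0 allows up to 0.923% and 0.781% with DMSO. Over all BPGM read pairs it held 0, 2, 89 and 32, or 0%, 0.432%, 4.55% and 4.45%, larger imatinib shares than in TIFs. It reached the count needed to enter TIFs in the imatinib libraries only. Some BPGM molecules ended early, at a poly(A) site in intron 2 of BPGM-201, 16700 bp before the main site. They numbered 18, 25, 12 and 6, or 5.54%, 6.51%, 0.832% and 1.06%. The share was lower in both imatinib libraries and missed the threshold (edgeR's diffSpliceDGE, adjusted p = 0.0639), and it passed when poly(A) sites were joined within 250 bp or when imatinib 2 was left out. The most upstream start and both ends are shown (hg38, plus strand, 5′ to 3′). Capitals mark CCAAT 46 bases before the start, ACGTG on the other strand 19 bases before it, and AATAAA at both poly(A) sites.
BPGM start, chr7:134646725-134646834: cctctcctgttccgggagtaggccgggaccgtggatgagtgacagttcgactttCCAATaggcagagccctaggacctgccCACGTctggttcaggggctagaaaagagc
BPGM main poly(A) site, chr7:134679778-134679807: gttcctgatAATAAAgtgactgaaaatggc
BPGM intronic poly(A) site, chr7:134663078-134663107: ctggtAATAAAtagaagaaatttctccacc

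Across the members, 161 TIFs were found in 23 genes and 101 were tested. Of these, 4 rose and 8 fell (edgeR, adjusted p under 0.05), beside 6.38% and 4.73% of all 16020 TIFs tested. They belonged to PFKM, LDHA, PKM, ALDOA and BPGM. Starts closer than 200 bp formed 41 groups, of which 23 in 7 genes could be tested for usage within the gene, and 3 were called, in LDHA, PKM and HK1, beside 5.65% over all genes. Among the 3 that were called, the LDHA start alone moved by at least 10 percentage points. The ALDOA starts moved by more but were not called. Poly(A) sites formed 49 groups, of which 22 in 11 genes were tested. None was called by diffSpliceDGE, beside 0.0769% over all genes, and 2 had an unadjusted p under 0.05, those of LDHA and BPGM given above. In PGK1, which fell, 1 start cluster held 94.9% of the molecules in TIFs with DMSO 1 and 95.1% with imatinib 1.

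The regulators of the phosphofructokinase step and of pyruvate entry were counted at low levels. PFKFB2, PFKFB3 and PFKFB4 make and remove fructose 2,6-bisphosphate, the activator of phosphofructokinase. PFKFB4 held 7, 19, 25 and 21 read pairs, with both imatinib libraries above both DMSO libraries once scaled to CPM, and did not pass the test (log2 fold change 1.28 ± 0.49, edgeR, adjusted p = 0.113). PDK1, which shuts pyruvate dehydrogenase, held 19, 14, 42 and 18 and did not pass it either (1.13 ± 0.45, adjusted p = 0.126). PDHA1 and PDHB, the subunits of pyruvate dehydrogenase E1, had log2 fold changes of -0.26 and -0.44 and the lactate transporter SLC16A1 of -0.53, with adjusted p from 0.248 to 0.554 in edgeR. PFKFB4, like GPI and ALDOC above, passed the test without imatinib 1, and PDK1, SLC16A1 and PFKL did without imatinib 2.

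None of the pentose phosphate enzymes among the members passed edgeR's test, nor DESeq2's. This pathway branches off at glucose 6-phosphate and yields NADPH and ribose. PGD, its second dehydrogenase, held 966, 1559, 1263 and 606 read pairs and had a log2 fold change of -0.08 ± 0.24. TALDO1, transaldolase, held 2817, 3544, 3629 and 2417 (0.33 ± 0.26), and TKT, transketolase, 422, 949, 604 and 212 (-0.42 ± 0.31). TIGAR, a phosphatase that opposes phosphofructokinase, held 22, 13, 11 and 4, of which 86% ended before A-rich stretches and all also count for ENSG00000285901. PGM2, a phosphopentomutase, had a log2 fold change of -0.20. The unadjusted p lay above 0.05 for these 5 genes.

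Of 67 other genes of these pathways, 41 were tested, and 14 were at 0 in all 4 libraries. Among those tested 6 rose and 2 fell, beside 8.69% and 6.15% of all genes tested. Beside PKLR, described above, those that rose were H6PD, the hexose 6-phosphate dehydrogenase of the endoplasmic reticulum, with 0, 5, 54 and 17 read pairs, and RBKS, ribokinase, with 2, 5, 17 and 8. SORD, sorbitol dehydrogenase, rose from 15.8 and 24.2 to 77.1 and 44.5 CPM, a 3.04-fold higher level, and PGM2L1, which makes glucose 1,6-bisphosphate, from 3.95 and 2.63 to 13.3 and 8.10 CPM. BSG, the chaperone of lactate transporters, was 1.86-fold higher (749, 1164, 1801 and 943, edgeR, adjusted p = 0.0389). PGAM5, a mitochondrial phosphatase related to phosphoglycerate mutase, fell from 82 and 164 to 41 and 28, and PDP2, a phosphatase that activates pyruvate dehydrogenase, from 30 and 38 to 11 and 2.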

How the data were processed

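The members, the gene lists and the comparison of the LDHA promoters were chosen with earlier results of these data known. The deposited TIF-seq2 tables hold counts of de-duplicated read pairs per 5′ and 3′ end, which the authors made from reads aligned to hg38. The submitters' processing notes name cutadapt 1.16, STAR 2.5.3a, bedtools 2.27.1 and minimap2 2.16. Long-read isoform models and 3T-fill were not used here.

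Read pairs were summed per gene for the 4 libraries and tested with edgeR 4.0.16 (TMM, filterByExpr, glmQLFit with robust, glmQLFTest) in R 4.3.3. Standard errors are the log2 fold change over the square root of F. A pair inside overlapping genes counted for each. Starts and poly(A) sites were clustered anew, after power-law scaling by the rules the study's methods give, within 10 bp. A position was kept with a scaled count of at least 1 in at least 2 libraries. A start high in 1 condition could thus enter through that condition alone. A TIF needed at least 4 read pairs. This gave 15953 start clusters and 34441 TIFs, which are not the study's own clusters and differ from them in number. Usage was tested with diffSpliceDGE on groups joined within 200 bp (starts) or 100 bp (poly(A) sites). DESeq2 1.42.0, other filters and scalings, a replicate block and leaving out each library were alternatives. On simulated counts for the gene comparison (12135 genes), 91% of 4-fold and 17% of 2-fold changes were recovered, with 10 false calls. Changes were planted only in the better counted genes, so recovery in members with few read pairs was not tested.

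Per-library values were due for members called at the gene level, LDHA, and members with a called usage change of at least 10 percentage points. PFKM, ALDOA, HK1 and the values of members that did not pass the test were added after they were seen. Promoter and poly(A) sequences were read from the hg38 genome.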

Additional observations from a re-analysis of the deposited data

How the results depend on the processing

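HK2, PKM and BPGM kept their direction and their call under all 13 alternatives each. With the replicate number as a block, 3 member genes were called in place of 7, 8 TIFs in place of 12, and 1 start in place of 3 (LDHA), and the LDHA log2 fold change was -1.29 with an adjusted p of 0.0506. Deviations of same-numbered libraries correlated at -0.24, and the labels give the numbers no shared origin. The study's methods name a corresponding DMSO control but do not say whether same-numbered libraries were paired. PGK1, PGAM1 and ENO1 were also not called under the block. A crossed block, chosen after seeing the data, called 13 member genes. Leaving out each library in turn gave 3 to 10 member genes (3 without DMSO 2), an LDHA log2 fold change of -1.36 to -1.26, 7 to 24 TIFs (7 without DMSO 2, 22 and 24 without imatinib 1 and imatinib 2), 0 to 1 starts, an LDHA share change of 9.89 to 13.6 points, and 0 to 1 poly(A) sites. Without the filter on low counts 22 member TIFs were called, and with poly(A) sites joined within 250 bp 1 poly(A) site was. Over all genes DESeq2 called 692 higher and 734 lower, against 1054 and 746 in edgeR, while total read pairs without TMM moved the median log2 fold change of all genes from 0.03 to 0.11. The PFKM start windows were not called under the block (adjusted p = 0.134 upstream) or without the filter (0.126). Causes of these shifts were not tested. With 2 libraries a group an exact permutation test cannot go below 0.333.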

Other observations

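Glucose uptake genes were counted in the same libraries. SLC2A1, the glucose transporter of red cells and many other tissues, held 265, 615, 1334 and 580 read pairs and was 2.83-fold higher after imatinib (edgeR, adjusted p = 0.0127). SLC2A3, a high-affinity glucose transporter, held 464, 743, 19 and 14 and fell by 4.77 ± 0.35 on the log2 scale (edgeR, adjusted p = 0.000894). SLC2A14, a near-copy of SLC2A3, was at 0, and reads of the 2 genes may not be separable.

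Of 17 regulators of these pathways, 15 were tested, 2 rose and none fell, beside 8.69% and 6.15% of all genes tested. TXNIP, an inhibitor of glucose uptake, held 1163, 1974, 4359 and 1574 read pairs and was 2.33-fold higher (edgeR, adjusted p = 0.0183). MLXIPL, a glucose-sensing transcription factor, held 1, 1, 13 and 7 (edgeR, adjusted p = 0.0149). MYC, at 675, 791, 361 and 280 read pairs, and HIF1A, at 48, 132, 92 and 23, did not pass the test, with log2 fold changes of -0.77 ± 0.31 and -0.33 ± 0.43.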
